A study of Mus musculus with 6 samples.

Results

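Cytochrome P450 genes, named Cyp on the array, were measured in the spinal cord of Dhtkd1 null and wild-type mice. They were taken as every non-control probe whose gene name is Cyp followed by a digit, with the Cyp4f genes, Cyp51 and Cyp46a1 left out. This gave 106 probes of 73 genes, out of 27343 gene names on the array, and 9 genes were left out by the exceptions. The Dhtkd1 null group had 3 samples and the wild-type group had 3 samples, each on 1 single-colour array (Cy3 dye). All 6 came from males of the C57BL/6 strain aged 8 weeks, with no treatment named. Dhtkd1 encodes a mitochondrial dehydrogenase subunit of lysine and tryptophan breakdown. The labels do not say which part of the gene was removed, whether the loss is in every cell, or whether replicates were separate animals, so p-values measure the spread between these samples, which may be technical.

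P450 enzymes hold a haem iron with which they split molecular oxygen and insert 1 of its atoms into a fatty acid, steroid, vitamin or foreign compound. Those of the endoplasmic reticulum take electrons from the reductase Por, and those of mitochondria from the ferredoxin Fdx1. Most of the drug-metabolising members are best known from liver, kidney and gut, while others act in nervous tissue on oxysterols, retinoic acid, arachidonic acid or vitamin D.

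Signals are log2 of the background-subtracted intensity minus log2 of the 75th percentile of the same array, so 0 marks a signal at that percentile. Brightness depends on the probe as well as on the RNA, so no gene was set against another by its level. Arrays were alike in quality, with 75th percentiles of 983 to 1055 in the null group and 950 to 1012 in the wild-type group, and no saturated spots. Both Dhtkd1 probes were lower on all null arrays, at -4.09 ± 0.07 in null and -3.01 ± 0.09 in wild-type for the first, and at -3.93 ± 0.46 in null and -2.86 ± 0.36 in wild-type for the second (SD, n = 3 each, adjusted p = 0.0922 and 0.514 by limma over probes). How these probes lie to the deleted stretch is not given in the sources used here. All 6 neuron and all 6 oligodendrocyte markers were well above background on every array. Of the liver markers on the array, Ahsg was well above background on 5 arrays, Apoa2 on 4, Alb on 2, and Apoa1 and Fgb on 0. The 3 null samples and wild-type replicate 2 were on one slide, and wild-type replicates 1 and 3 on another, with the scans grouped in the same way. Within the slide that held both groups, or with the slide as a block, 3 null arrays are set against wild-type replicate 2 alone.

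Several P450 genes are near copies of each other, and a probe can then read more than 1 of them. Of the 106 probes, 21 list RefSeq transcripts of more than 1 P450 gene, and 10 of these were among the probes tested. The probes shown here are the openings (30 of 60 bases, 5′ to 3′, as deposited) of the pair (Cyp2c65 and Cyp3a13) that had an unadjusted p under 0.05 in every alternative that gave them a value, of the Cyp2j9 and Cyp2j6 probes from one gene cluster, and of the Cyp3a41a probe, which also lists Cyp3a41b. Positions are those of the array design on the mm9 genome, each on the chromosome named.
Cyp2c65, chr19:39168290-39168349: gtctgcaattccctatgctatgcaatgatt
Cyp3a13, chr5:138335318-138335377: gaacttgctcagtctctgtgaaagttatct
Cyp2j9, chr4:96235281-96235340: aaattaaggtgacagagagtgcgtgcaatg
Cyp2j6, chr4:96192532-96192591: ccttgaatgttcccagggaagtagcaatgg
Cyp3a41a, chr5:146505792-146505851: actggttctcatgggaccatctccatccac
The brightest Cyp2j13 probe is printed whole, because its capitals mark the 24 bases that encode the haem-binding loop shared by P450 enzymes, the stretch with the cysteine that holds the iron. It was the only P450 probe of 106 with that loop when the 3 forward reading frames of the sequence as deposited were searched, and 3 of all 41174 probes had it. Its bases lie within chr4:95712305-95723288 and cross exon junctions.
Cyp2j13: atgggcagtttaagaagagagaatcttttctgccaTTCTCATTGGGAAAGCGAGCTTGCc

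On each array a smaller share of the P450 probes than of all probes was well above background, a description with no test. In null replicates 1, 2 and 3, 57, 59 and 57 of the 106 P450 probes were well above background by the flag of the scanner software, against 60, 58 and 54 in wild-type replicates 1, 2 and 3. These are 53.8%, 55.7% and 53.8% of P450 probes in null and 56.6%, 54.7% and 50.9% in wild-type. Over all probes the shares were 80.3%, 80.3% and 80.5% in null and 81.7%, 81.2% and 78.0% in wild-type. By gene, 46, 47 and 45 of 73 had a detected probe in null, against 46, 46 and 44 in wild-type. The ranges of the groups overlapped in every one of these counts, and in both measures of the P450 set the lowest array was wild-type replicate 3. Of the 73 genes, 40 had a probe that was well above background on all 6 arrays and 21 had none on any array. Among probes, 38 of 106 (35.9%) were below that mark on all arrays, against 14.1% of all probes on the array. The undetected probes had a median GC share of 40.0%, against 43.3% for the probes tested, and 13 of 38 of them crossed an exon junction, against 8 of 57.

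**Figure D1:**
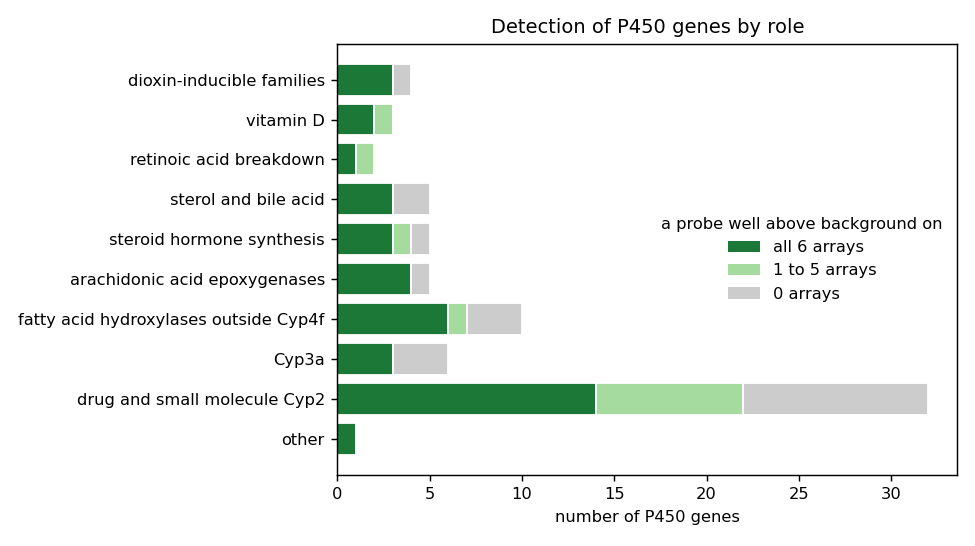
Number of P450 genes (x axis) in each functional group (y axis), coloured by whether a probe of the gene was well above background on all 6 arrays, on 1 to 5 arrays or on 0 arrays. The Cyp2 drug group holds 32 genes, of which 10 were detected on no array, whereas the vitamin D and retinoic acid groups have no undetected gene.

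Undetected genes included well-known liver enzymes. Cyp7a1, the rate-limiting enzyme of bile acid synthesis, and Cyp8b1, which makes cholic acid, never passed background, with processed intensities of at most 6.0 and 4.1 units on any array. The same held for Cyp1a2, a liver enzyme that clears caffeine, for Cyp11b2, the aldosterone synthase of the adrenal cortex, and for Cyp2j5, a Cyp2j enzyme of kidney and liver. Cyp19a1, the aromatase that makes oestrogen, passed on 1 array. In the Cyp3a group, Cyp3a16, Cyp3a25 and Cyp3a44 passed on 0 arrays. Of the 32 other Cyp2 genes, 14 were not tested, among them Cyp2b10, Cyp2c29, Cyp2c40 and Cyp2g1. To be tested, a gene needed a probe that passed background on 3 or more of the arrays, which left 46 P450 genes and 27 outside the tests. Cyp4a14, a fatty acid hydroxylase of liver and kidney, was the 1 gene above background on at least 2 arrays of one group and none of the other. It passed on 0 null arrays and on wild-type replicates 1 and 2, at -7.04 in null and -6.98 in wild-type on average, so no fold is given.

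No P450 gene differed between Dhtkd1 null and wild-type once p-values were adjusted over all 21436 genes tested by limma and Benjamini-Hochberg, where 0 genes passed and the background share is 0%. The lowest adjusted p was 0.341 among the P450 genes and 0.0616 among all genes. At an unadjusted p under 0.05, 6 of the 46 P450 genes were higher in null, where 5.92% of all genes tested (1270) were, and 2 were lower, where 3.01% of all genes (646) were. Together these are 17.4% of the P450 genes, against 8.94% of all genes. The split was 2 higher and 3 lower with the slide as a block, and 3 and 3 with normexp, another background correction. With normexp, 8.95% of all genes were at an unadjusted p under 0.05, both directions together. Normexp was run with an offset of 50 units added to every signal, which by itself shrinks the log2 differences of dim probes. In 8 genes every null array was above every wild-type array, where 9.66% of all genes were, and in 2 every null array was below, where 5.18% were. The median log2 difference was 0.05 for the 46 P450 genes and 0.02 for all genes, and 27 were higher and 19 lower in null (58.7% higher, against 55.9% of all genes). That split turned to 41.3% higher with quantile normalization or the deposited value table, and 43.5% with the slide as a block. The share of all genes that was higher in these settings is not given here. The median over all genes moved too, to -0.0001 with quantile normalization and -0.0024 with the value table. With 3 arrays on each side, the smallest p of an exact permutation test is 0.1, so single genes are read from limma alone.

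**Figure D2:**
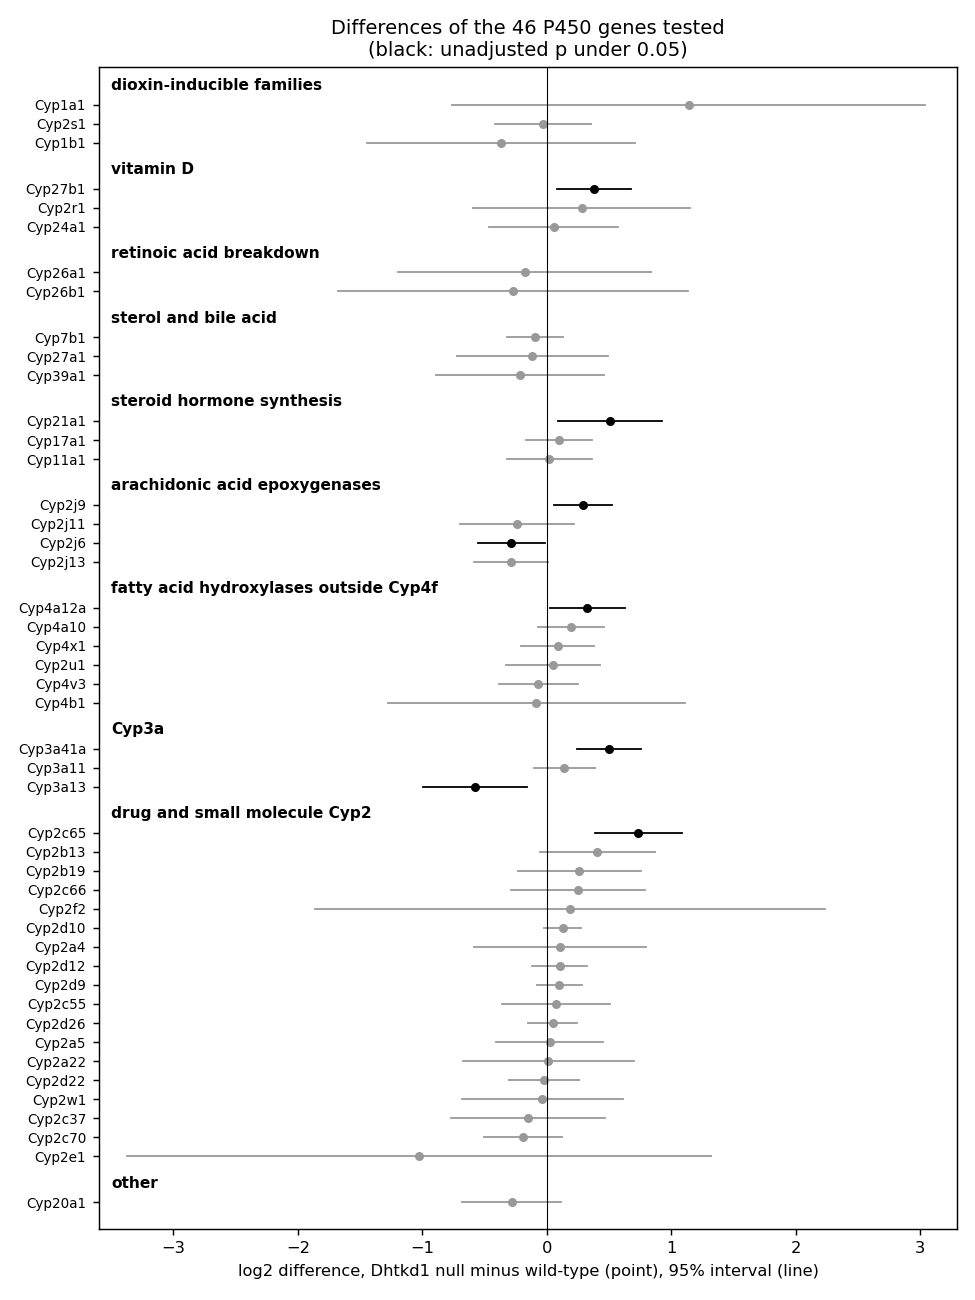
Log2 difference, Dhtkd1 null minus wild-type (x axis), of the 46 P450 genes tested, by functional group (y axis), with the 95% interval of each as a line and 3 arrays per group. The 8 genes in black had an unadjusted p under 0.05, all differences but 2 lie within 1 log2 unit of 0, and the widest intervals are those of Cyp1a1, Cyp2e1 and Cyp2f2.

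Cyp2c65, a Cyp2c enzyme known chiefly from mouse gut, had the lowest p of the P450 genes. Its signal was -5.69, -5.27 and -5.31 in null replicates 1, 2 and 3, against -6.27, -6.18 and -6.01 in wild-type replicates 1, 2 and 3. All null arrays lay above all wild-type arrays, null replicate 1 being the nearest to them. The difference was 0.73 (SE 0.14, 1.66-fold, adjusted p = 0.341 by limma), with an unadjusted p under 0.05. It is a dim probe, with processed intensities of 20.4 to 26.0 units in null and 13.0 to 14.7 in wild-type. With normexp correction the difference was 0.18, still at an unadjusted p under 0.05. In whole tissue, more RNA per cell and more cells of a type cannot be told apart, here and below. Cyp2c66, its neighbour in the Cyp2c family, has a probe that also lists Cyp2c65, and its groups overlapped, at -5.26 ± 0.37 in null and -5.51 ± 0.23 in wild-type (SD, n = 3 each).

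The Cyp3a genes, whose products break down many drugs and steroids, gave values on both sides of 0. Cyp3a41a, known from female mouse liver, was at -5.78, -5.85 and -6.07 in null and -6.48, -6.30 and -6.41 in wild-type. The groups did not overlap, and the difference was 0.50 (SE 0.10, 1.42-fold, adjusted p = 0.365 by limma). This probe too is dim, at 15.4 to 19.2 units in null and 11.1 to 12.8 in wild-type. Normexp correction, whose offset of 50 units is above all these values, left a difference of 0.03, at an unadjusted p above 0.05. Cyp3a13, a Cyp3a enzyme found in several tissues besides liver, was lower in null. It was at -1.16, -1.64 and -1.68 in null and -1.08, -0.77 and -0.88 in wild-type. Null replicate 1 came within 0.1 log2 units of wild-type replicate 1, and the other null arrays were further below. The difference was -0.58 (SE 0.17, adjusted p = 0.483 by limma), and it was -0.72 within the slide that held both groups. Cyp3a11, an abundant liver enzyme, overlapped between groups at -4.62 ± 0.11 in null and -4.76 ± 0.13 in wild-type (SD, n = 3 each), from a probe that also lists Cyp3a41a, Cyp3a41b and Cyp3a44.

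The Cyp2j genes make epoxides from arachidonic acid and lie in a cluster on chromosome 4. Of the 4 tested, 1 was higher and 3 were lower in null. Cyp2j9, known for its expression in mouse brain, was at 2.34, 2.58 and 2.43 in null and 2.23, 2.18 and 2.05 in wild-type. All null arrays were above all wild-type arrays, and the difference was 0.29 (SE 0.09, 1.23-fold, adjusted p = 0.508 by limma). Cyp2j6, found in many tissues, was at -0.42, -0.67 and -0.78 in null and -0.28, -0.38 and -0.36 in wild-type. All null arrays were below, null replicate 1 by little, and the difference was -0.28 (SE 0.11, adjusted p = 0.539 by limma). A further Cyp2j6 probe gave -0.30, also with all null arrays below all wild-type arrays. Within the slide that held both groups the differences were 0.27 for Cyp2j9 and -0.24 for Cyp2j6, both at an unadjusted p above 0.05. Cyp2j9 lost its p under 0.05 without null replicate 2 (0.23), null replicate 3 (0.30) or wild-type replicate 3 (0.24). Cyp2j6 lost it without any single array other than null replicate 1, at differences of -0.30 to -0.21. Its p under 0.05 was also lost without a filter on dim probes (-0.28).

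Cyp2j13 was read by the probe with the haem-binding loop, which also lists Cyp2j12. It was at -1.31, -1.38 and -1.54 in null and -1.33, -1.05 and -0.99 in wild-type. Null replicate 1 lay just above wild-type replicate 1, so the groups overlapped. The unadjusted p was just above 0.05, and the difference was -0.29 (SE 0.12, adjusted p = 0.56 by limma). Without wild-type replicate 1 it was -0.39, at an unadjusted p under 0.05. Another Cyp2j13 probe, at 4.3 to 82.5 units in null and 1.7 to 43.0 in wild-type, gave 0.88 with an SE of 1.51, and the last passed background on 1 array. Cyp2j11 overlapped between groups, at -4.47 ± 0.12 in null and -4.24 ± 0.35 in wild-type (SD, n = 3 each).

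**Figure D3:**
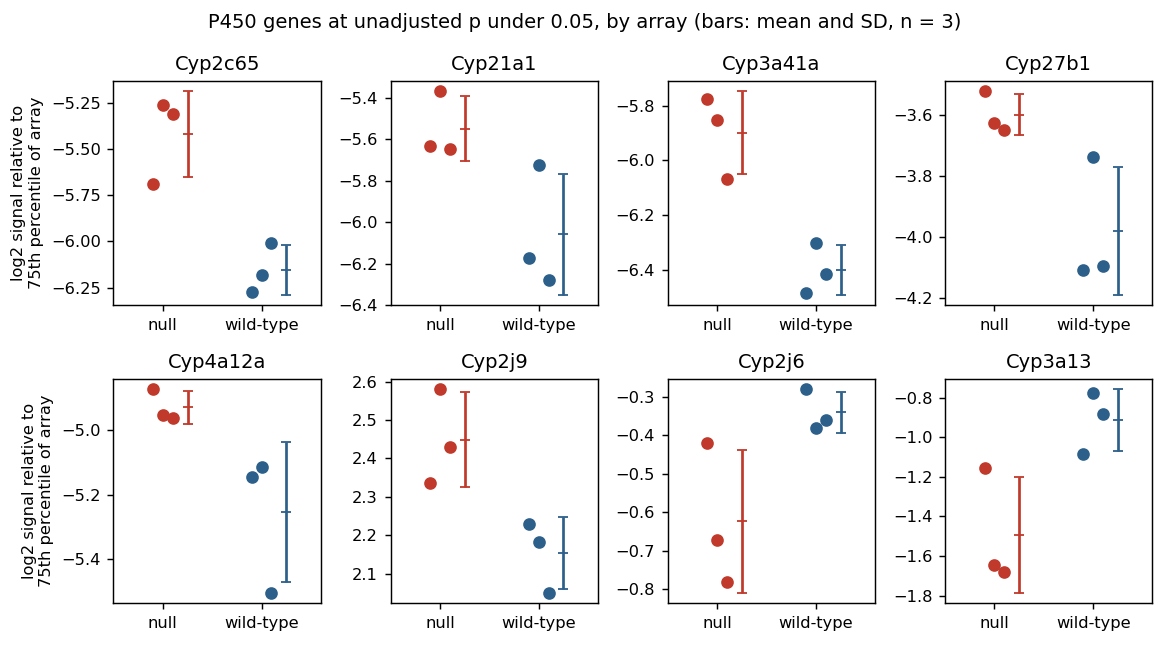
Log2 signal relative to the 75th percentile of the array (y axis, a separate range in each panel) of the 8 P450 genes at an unadjusted p under 0.05. Points are single arrays of the Dhtkd1 null group (left) and of the wild-type group (right), and bars show mean and SD (n = 3). The groups do not overlap in any panel, with null above in 6 genes and below in Cyp2j6 and Cyp3a13.

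The 3 vitamin D genes were higher in null on average, by 0.05 to 0.38, although Cyp24a1 turned lower with quantile normalization, normexp or the value table, and Cyp2r1 without null replicate 2. Cyp27b1, which makes the active hormone from circulating vitamin D, was at -3.52, -3.63 and -3.65 in null and -4.11, -3.74 and -4.09 in wild-type. All null arrays were above the wild-type range, with wild-type replicate 2 the closest. The difference was 0.38 (SE 0.12, 1.30-fold, adjusted p = 0.503 by limma), and a dimmer Cyp27b1 probe gave 0.27 with overlapping groups. Within the slide that held both groups it was 0.14, at an unadjusted p above 0.05. The p under 0.05 was lost without null replicate 1 (0.34), wild-type replicate 1 (0.32) or wild-type replicate 3 (0.32). Other settings that lost it include quantile normalization (0.30) and the value table (0.29). Cyp2r1, the liver enzyme of the step before, was at -6.43 ± 0.53 in null and -6.71 ± 0.50 in wild-type, and Cyp24a1, which degrades the hormone, at -5.90 ± 0.29 and -5.95 ± 0.31 (SD, n = 3 each). Both overlapped between groups.

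The 3 steroid hormone genes tested were also higher in null on average, although Cyp11a1 turned lower under each of 4 other scalings and Cyp17a1 stood at 0.00 within the slide that held both groups. Cyp21a1, the hydroxylase that adrenal cells need for glucocorticoids and aldosterone, was at -5.63, -5.37 and -5.64 in null and -6.17, -5.72 and -6.28 in wild-type. The groups did not overlap, though wild-type replicate 2 was within 0.1 log2 units of null replicates 1 and 3. The difference was 0.51 (SE 0.17, 1.42-fold, adjusted p = 0.515 by limma). It was 0.18 within the slide that held both groups and 0.02 with normexp correction, both at an unadjusted p above 0.05, from processed intensities of 20.6 to 23.8 units in null and 12.3 to 19.1 in wild-type. Without null replicate 2, wild-type replicate 1 or wild-type replicate 3 it was 0.42, 0.45 and 0.40, each at an unadjusted p above 0.05. The value table gave 0.39, also at an unadjusted p above 0.05. Cyp17a1, which turns progestagens into androgen precursors, gave overlapping groups at 0.38 ± 0.12 in null and 0.28 ± 0.15 in wild-type (SD, n = 3 each). Cyp11a1, which cuts the cholesterol side chain, gave 0.02 from one probe and -0.31 from another, both dim at 21.0 to 27.3 units in null and 20.4 to 33.3 in wild-type. With normexp correction its difference was -0.18, at an unadjusted p under 0.05 but not after adjustment.

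The sterol and bile acid genes tested were lower in null on average, by 0.09 to 0.22, and all overlapped between groups. They stayed lower under the 4 other scalings, while Cyp39a1 turned higher (0.05) without null replicate 2. They were also lower within the slide that held both groups, where wild-type replicate 2 stood alone. That array was the highest wild-type array for Cyp27a1 and Cyp39a1, but not for Cyp7b1. Cyp7b1, which hydroxylates oxysterols and neurosteroids and whose loss in humans causes a hereditary spastic paraplegia, was at 0.37, 0.59 and 0.41 in null and 0.65, 0.50 and 0.50 in wild-type. Null replicate 2 was within the wild-type range. The difference was -0.09 (SE 0.09, 95% interval -0.32 to 0.13). Cyp27a1, the mitochondrial sterol hydroxylase whose loss in humans causes cerebrotendinous xanthomatosis, was at -1.75 ± 0.10 in null and -1.63 ± 0.49 in wild-type (SD, n = 3 each). Cyp39a1, which acts on the hydroxycholesterol made in brain, had a difference of -0.22 from both of its probes. Its null arrays stood at -0.41, -1.34 and -0.67 and its wild-type arrays at -0.67, -0.27 and -0.82, with the lowest value in null replicate 2.

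Among the fatty acid hydroxylases, 6 of 10 genes were tested, 4 higher and 2 lower in null on average, or 3 and 3 under other scalings, where Cyp2u1 turned. Cyp4a12a, the omega hydroxylase that makes the vasoactive arachidonic acid product of male mouse kidney, was at -4.87, -4.95 and -4.96 in null and -5.14, -5.12 and -5.50 in wild-type. All null arrays were above all wild-type arrays, and wild-type replicate 3 was apart from the other two. The difference was 0.32 (SE 0.12, 1.25-fold, adjusted p = 0.534 by limma), from a probe that also lists Cyp4a12b. It was 0.19 within the slide that held both groups and 0.07 with normexp correction. In both the unadjusted p was above 0.05, as it was without null replicate 1 (0.30), null replicate 2 (0.34) or null replicate 3 (0.34). Other settings that brought the Cyp4a12a unadjusted p above 0.05 include quantile normalization (0.22), median centring (0.27) and the value table (0.21). A further probe that lists both Cyp4a12a and Cyp4a12b was above background on 0 arrays. Cyp4a10, another target of the lipid receptor Ppara, gave 0.20 from one probe and -0.34 from another. Cyp4x1, known from mouse brain, was at -0.14 ± 0.11 in null and -0.23 ± 0.18 in wild-type. Cyp4v3, the counterpart of a human gene mutated in a retinal crystal disease, was at -0.10 ± 0.09 in null and -0.03 ± 0.22 in wild-type, and its difference was 0.14 within the slide that held both groups. Cyp2u1, whose human counterpart is also mutated in a hereditary spastic paraplegia, was at -2.53 ± 0.19 in null and -2.57 ± 0.22 in wild-type (SD, n = 3 each). The groups overlapped for these 3 genes.

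The other Cyp2 genes, most of them enzymes of drug and steroid breakdown, had 18 of 32 tested, with differences of -1.03 to 0.73 and a median of 0.09. Of these, 13 were higher in null on average, against 8 with quantile normalization and 5 within the slide that held both groups. Beside Cyp2c65, none had an unadjusted p under 0.05. Cyp2d10 and Cyp2b13 had every null array above every wild-type array on their brightest probes. The Cyp2d10 arrays were at -3.55, -3.51 and -3.54 in null and -3.65, -3.67 and -3.66 in wild-type, a small difference (0.13, SE 0.06) with little spread. Cyp2b13 was at -6.02 ± 0.12 in null and -6.42 ± 0.35 in wild-type (SD, n = 3 each), and its wild-type replicate 3 was not above background. A dimmer Cyp2d10 probe gave 0.16 with overlapping groups, and a further Cyp2b13 probe was above background on 0 arrays. Cyp2d9, a testosterone hydroxylase of male mouse liver, was at -0.66 ± 0.05 in null and -0.76 ± 0.07 in wild-type, with overlapping groups. Its probe also lists Cyp2d11, Cyp2d34 and Cyp2d40. Cyp2d22 gave -0.02, -0.10 and 0.22 from its 3 probes. Another 10 of these genes, among them Cyp2b19, Cyp2c55, Cyp2d26 and Cyp2w1, overlapped between groups, with differences of -0.19 to 0.26. Cyp20a1, a P450 with no settled substrate, was at -1.36 ± 0.13 in null and -1.08 ± 0.29 in wild-type (SD, n = 3 each), and its difference of -0.28 was -0.43 without wild-type replicate 1, then at an unadjusted p under 0.05.

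The SD within groups had a median of 0.23 log2 units over the P450 genes tested, against 0.15 over all genes tested. Their median signal was -3.98, against -1.13 over all genes tested, and its part in the spread was not tested. Cyp2s1, a P450 of skin and other surfaces that is also induced by dioxin, was at 0.47, 0.86 and 0.48 in null and 0.86, 0.53 and 0.50 in wild-type, with overlapping groups. The genes described next were picked for their spread after their values were seen, apart from Cyp26b1. Cyp1a1, the hydrocarbon-oxidising enzyme induced through the receptor Ahr, was at -6.35, -3.29 and -5.52 in null and -6.00, -6.09 and -6.49 in wild-type. Null replicate 2 alone stood far above the other arrays, and the difference was 1.14 with an SE of 0.77, or 0.26 without that array. Cyp2e1, the ethanol-oxidising enzyme of liver, was well above background on 3 arrays, and its highest signals were -5.62 in null replicate 2 and -6.13 in wild-type replicate 2. Its difference was -1.03 with an SE of 0.95, and null replicate 2 was the 1 null array on which it passed background. Without that array the difference was -2.11, with the remaining null arrays, at 1.8 and 2.8 units, not above background. Null replicate 2 and wild-type replicate 2 had the highest means of 5 adipocyte markers, relative to each gene's mean over the arrays. These means were -0.27, 2.13 and -0.61 in null and -1.59, 1.22 and -0.88 in wild-type, and a further marker, Lep, passed background on 0 arrays. The 5 skeletal muscle markers also had their highest means there, at 0.53 in null replicate 2 and 1.00 in wild-type replicate 2. The part of either list in the Cyp1a1 and Cyp2e1 values was not tested.

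Cyp26b1, which clears retinoic acid, was at -0.60, 0.00 and 0.57 in null and -0.58, -0.04 and 1.41 in wild-type. Wild-type replicate 3 was the highest array and null replicate 1 the lowest, and the difference was -0.27 with a 95% interval of -1.68 to 1.14, or 0.03 within the slide that held both groups. Cyp26a1, with the same task, was above background on 4 arrays, at -6.81 ± 0.37 in null and -6.63 ± 0.77 in wild-type (SD, n = 3 each). Cyp1b1, a relative of Cyp1a1 that also oxidises oestrogens and retinoids, was at -2.40, -1.60 and -1.01 in null and -1.30, -1.88 and -0.73 in wild-type. Its 6 arrays had the same order as the mean of 7 meningeal fibroblast markers, all of them above background on every array. The fibroblast marker means were -1.80, -0.12 and 0.67 in null and 0.23, -0.47 and 1.49 in wild-type. The mean of 7 mural markers had that order too, at -0.28, -0.03 and 0.07 in null and 0.03, -0.11 and 0.32 in wild-type, but its members were not alike. Wild-type replicate 3 was the highest array for Vtn, Pdgfrb, Myh11 and Rgs5, and the lowest for Kcnj8. The highest array was wild-type replicate 2 for Acta2 and null replicate 2 for Abcc9. Cyp4b1, known from lung, was at -4.45, -3.84 and -3.55 in null and -3.46, -4.89 and -3.25 in wild-type, with the lowest array in wild-type replicate 2 and the highest in wild-type replicate 3. Cyp2f2, a lung enzyme that activates naphthalene, was at -6.03, -5.37 and -3.33 in null and -6.18, -4.88 and -4.22 in wild-type. Groups overlapped for Cyp26b1, Cyp1b1, Cyp4b1 and Cyp2f2, and the part of the fibroblast and mural markers in these values was not tested. The means of all 15 cell type marker lists overlapped between null and wild-type.

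**Figure D4:**
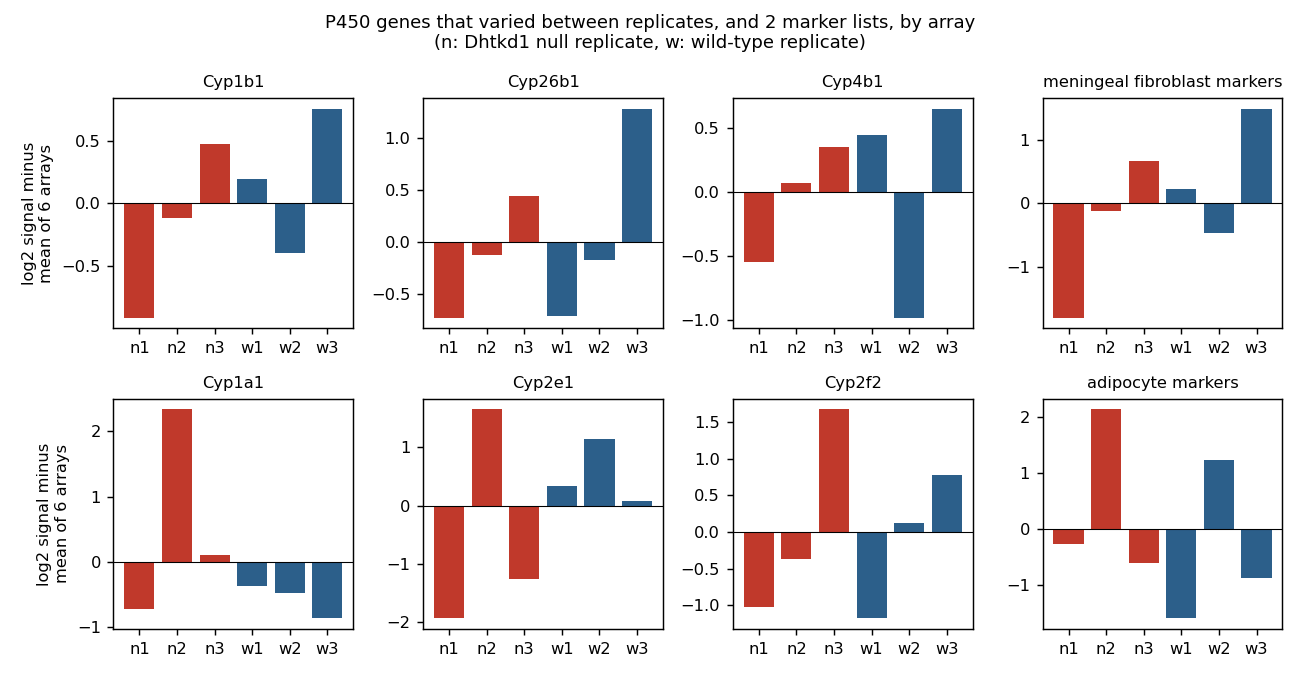
Log2 signal minus the mean of the 6 arrays (y axis, a separate range in each panel) for 6 P450 genes with a wide spread between replicates and for 2 marker lists, by array (n, Dhtkd1 null replicates, left, and w, wild-type replicates, right). Null replicate 2 is highest for Cyp1a1, Cyp2e1 and the adipocyte markers, and wild-type replicate 3 is highest for Cyp1b1, Cyp26b1, Cyp4b1 and the meningeal fibroblast markers.

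Genes that serve P450 enzymes were followed in 6 lists of 84 genes, of which 79 were tested. At an unadjusted p under 0.05, 4 of the 79 were higher and 4 lower in null, where 5.92% and 3.01% of all genes were, and none passed after adjustment over all genes by limma. Por, the reductase that feeds electrons to microsomal P450s, was at 3.58 ± 0.04 in null and 3.61 ± 0.18 in wild-type (SD, n = 3 each), a difference of -0.03 with a 95% interval of -0.29 to 0.24. The mean of the 11 electron donor genes, relative to each gene's mean over the arrays, was -0.03, -0.03 and -0.02 in null and -0.02, 0.03 and 0.07 in wild-type, the 1 list of 6 without overlap, by a narrow gap. Cyb5r3, the reductase of a cytochrome that also feeds electrons to P450s, gave -0.33 (SE 0.12). Alas2, which starts haem synthesis in red cells, gave 0.73 (SE 0.24). Among nuclear receptors, Rxra, the partner of the vitamin D and lipid receptors, gave -0.22 (SE 0.07), and Nr5a2, a receptor that drives bile acid and steroid genes, gave -0.61 (SE 0.17). Rdh10, which starts the making of retinoic acid, gave -0.29 (SE 0.07). Arachidonic acid enters other routes through Ptgs2, an inducible cyclooxygenase with a difference of 2.37 (SE 0.73), and Alox5, a lipoxygenase with 0.56 (SE 0.21). Ptgs2 was at -4.26, -2.52 and -1.84 in null and -5.55, -5.91 and -4.28 in wild-type, so null replicate 1 and wild-type replicate 3 nearly met. The 6 leukocyte markers had means of 0.92, 1.69 and -0.63 in null and 0.04, -0.59 and -1.42 in wild-type, and their part in the Ptgs2 and Alox5 values was not tested. Gstm1, a glutathione transferase that acts on P450 products, gave 0.28 (SE 0.09).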

How the data were processed

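Spot intensity values were read from the deposited scanner output, made with Agilent Feature Extraction 10.7.3.1, per the file headers, which also give background subtraction and no normalization between arrays. The deposited value table is in log2 units, and how the authors made it is not given in the sources used here. The members and lists were chosen with earlier results of these data known. Outlier spots were left out (65 to 89 on null arrays, 58 to 66 on wild-type arrays), repeated spots were averaged, and a probe was kept when well above background on 3 of 6 arrays (33191 of 41174 probes). The brightest kept probe stood for its gene (21436 genes). Null minus wild-type was fitted with limma 3.58.1 in R 4.3.3, on 3 arrays per group, 2-sided, with Benjamini-Hochberg adjustment over all genes. The fit was tested on simulated data. Symbols were updated through RefSeq accessions (GRCm38.p6 table), which renamed Cyp2c44 to Cyp2c23 and Cyp4a29-ps to Cyp4a29. Of the 106 probes, 97 were named by accession and 9 kept the symbol in the file.

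Genes were named when at an unadjusted p under 0.05, among the 10 brightest or the brightest of a functional group, detected on 2 or more arrays of one group only, or read differently by several probes. From the partner lists the same p and Por were used. Other genes complete a group or were picked for their spread. The number of arrays limits the precision. In all, 19 alternatives were run. The slide was read from the headers.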

Additional observations from a re-analysis of the deposited data

How the results depend on the processing

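Across 19 alternatives, wherever one gave a value, all 8 P450 genes at an unadjusted p under 0.05 kept their direction, and Cyp2c65 (0.18 to 0.87) and Cyp3a13 (-0.75 to -0.49) also kept a p under 0.05. No P450 gene passed after adjustment in any of them. The count at an unadjusted p was 8, and it was 5 of 46 with the deposited value table (3 higher, 2 lower, against 8.59% of all genes at that p) and 5 of 46 with the slide as a fixed block (2 higher, 3 lower, against 7.93% of all genes), which gives the difference within slide 1. It was 4 to 8 with 1 array left out, where 5.87% to 13.4% of all genes were at that p (4 without wild-type replicate 3, 5 without null replicate 2 or null replicate 3). The median P450 difference of 0.0474 was -0.0261 with quantile normalization, -0.0307 with the value table and -0.0210 with the slide block. Over all genes the median of 0.0228 was -0.0001 with quantile normalization and -0.0024 with the value table. The median P450 difference was 0.0396 to 0.1148 with 1 array left out, the highest without wild-type replicate 2. The count of all genes past adjustment, 0 as reported, was 1 with quantile normalization, median centring, normexp, the value table or a filter on all 6 arrays, 4 with limma's trend and robust options, and 0 to 2 with 1 array left out (1 without null replicate 1, 2 without null replicate 2). Replicate numbers do not pair the samples (correlations of deviations of -0.02, -0.11 and 0.33), and with the replicate block the count stayed at 8 and the median at 0.0474. The causes of these shifts were not tested. The probes of Cyp2c65, Cyp3a41a, Cyp21a1 and Cyp4a12a are dim, and the normexp offset by itself shrinks their log2 differences. The part of low signal over background in these differences was not tested.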
